A study of Mus musculus with 16 samples.

Results

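Regulators of G-protein signalling (RGS) were followed as 10 genes, Rgs2, Rgs3, Rgs4, Rgs6, Rgs7, Rgs8, Rgs9, Rgs10, Rgs14 and Rgs17, chosen by symbol among the 52636 genes of the count files. All 10 passed the filter on low counts, which left 21371 genes for testing. RNA came from lumbar dorsal root ganglia (DRGs) of 16 male C57Bl6/J mice aged 3 to 4 months, with 1 mouse per library and 4 mice per group. Sham-Saline mice had sham surgery of the left hindleg and saline injections. SNI-Saline mice had the same injections after tibial spared nerve injury (SNI), in which the common peroneal and sural nerves were ligated and cut. Sham-DMI and SNI-DMI mice had the respective surgery and desipramine (DMI), a tricyclic antidepressant that blocks noradrenaline reuptake, at 15 mg/kg by intraperitoneal injection 2 times per day for 3 weeks. The labels give 4 weeks after surgery for the start of treatment, and the text of the study gives both 4 weeks and 4 months. The ganglia hold neurons with cut axons beside neurons with spared axons, and the drug was given systemically.

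RGS proteins speed up the hydrolysis of GTP by activated G-alpha subunits and so shorten the signal of a G-protein coupled receptor. The members fall into subfamilies. Rgs2, Rgs3, Rgs4 and Rgs8 belong to R4, small proteins that act on the Gi/o and Gq classes. Rgs6, Rgs7 and Rgs9 belong to R7, whose proteins pair with the G-beta subunit Gnb5 and are held at the membrane by binding proteins such as Rgs7bp. Rgs10 and Rgs14 belong to R12, and Rgs17 to RZ, which acts on Gz and other Gi-class subunits. In sensory neurons, Gi/o-coupled opioid and adrenergic receptors dampen excitability, and RGS proteins are known to set how long these receptors signal.

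Between 41194238 and 73920332 read pairs per library were counted on genes. The labels name spinal cord as the tissue and dorsal root ganglia as the cell type. The 11 sensory neuron markers summed to 13870 to 18311 CPM (counts scaled to the library total) over the 16 libraries. Of 7 spinal cord markers, the oligodendrocyte genes Mog, Opalin and Olig2 and the glycinergic neuron gene Slc6a5 stayed at or under 0.749 CPM. The GABAergic neuron gene Gad1 had 0.418 to 1.34 CPM, and the astrocyte genes Aqp4 and Slc1a2 had 7.53 to 13.4 and 6.17 to 14.2 CPM. The summed level of 7 injured-neuron markers was 276 to 306 CPM in Sham-Saline mice and 460 to 521 CPM in SNI-Saline mice. It was 333 to 374 CPM in Sham-DMI mice and 481 to 647 CPM in SNI-DMI mice. Of these 7, 6 were called higher in SNI-Saline than in Sham-Saline and 5 in Sham-DMI than in Sham-Saline. Atf3, an injury-induced transcription factor, averaged 10.5 CPM in Sham-Saline, 52.4 in SNI-Saline and 16.9 in Sham-DMI. The 8 macrophage markers summed to 91.7 to 110 CPM in Sham-Saline mice and 123 to 221 CPM in SNI-Saline mice. Under DMI the sums were 73.4 to 106 CPM in sham and 99.98 to 202 CPM in injured mice. The 6 neutrophil markers summed to 9.99 to 38.5 CPM in Sham-Saline and 3.72 to 17.3 in Sham-DMI, where 5 were called lower (median log2 change -1.55). They summed to 14.8 to 49.0 CPM in SNI-Saline and 4.25 to 13.5 in SNI-DMI, where 1 was called lower (median -1.40). Of the 11 sensory neuron markers, 4 were called higher and 1 lower in Sham-DMI than in Sham-Saline. Among all tested genes 12% were called for SNI-Saline against Sham-Saline, 23.4% for Sham-DMI against Sham-Saline and 2.93% for SNI-DMI against SNI-Saline. The part of these marker differences in the RGS values was not tested. In bulk ganglia, fewer cells of a type and less RNA per cell cannot be told apart. The library numbers in the sample titles run in blocks of 4 by group, so library order and group cannot be told apart either.

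Levels were compared between genes as CPM per kb of merged exon. In Sham-Saline ganglia Rgs4, a GTPase-activating protein for Gi/o and Gq, had the highest level of the 10 at 342 ± 31.2 (SD, n = 4) CPM per kb, and 99.8% of all tested genes lay below it. Rgs10, a small RGS protein of neurons and macrophages, came next at 94.5 ± 10.8. Rgs7 followed at 15.0 ± 1.42, Rgs3 at 9.94 ± 0.409, Rgs8 at 9.13 ± 0.717 and Rgs17 at 7.62 ± 0.837. Rgs6 stood at 4.79 ± 0.565 and Rgs2 at 3.64 ± 0.533. Rgs9, known for its retinal and striatal forms, and Rgs14, a scaffold of the hippocampus, had the lowest levels at 1.84 ± 0.600 and 1.83 ± 0.135. The mice overlapped between neighbours in this order for Rgs3 and Rgs8, Rgs8 and Rgs17, Rgs6 and Rgs2, and Rgs9 and Rgs14. Per kb of the longest transcript Rgs6 moved above Rgs17, at 8.59 against 7.72 in Sham-Saline, and the other ranks were kept. Rgs4, Rgs10, Rgs7 and Rgs3 held the first 4 places in all 4 groups, in that order.

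**Figure D1:**
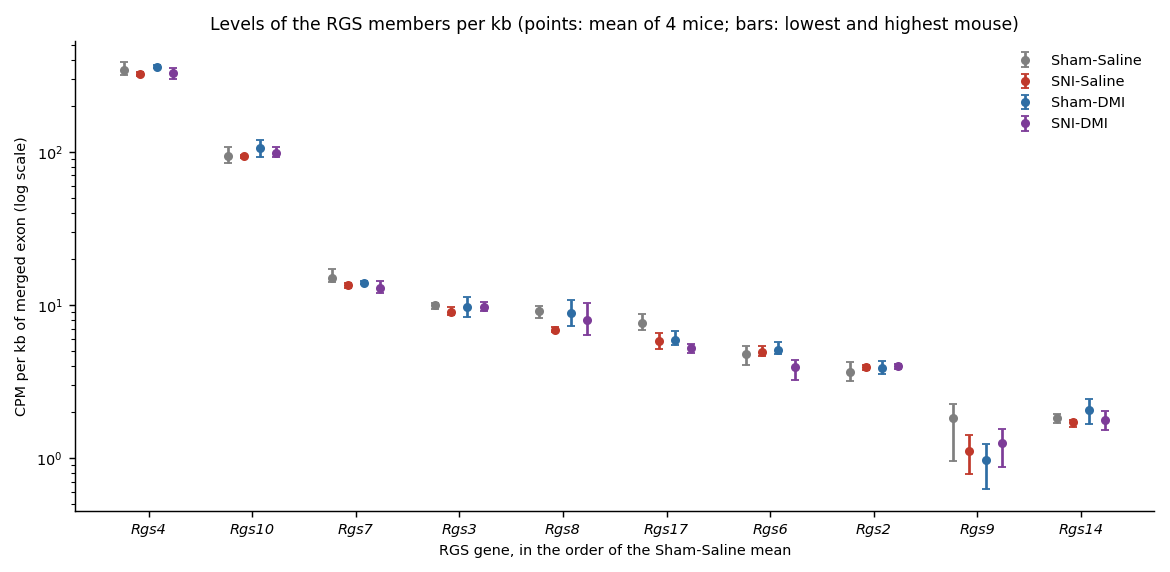
Level of each RGS gene in CPM per kb of merged exon on a log axis, in the order of the Sham-Saline mean. Points are means of 4 mice and bars reach from the lowest to the highest mouse. Rgs4 at 342 and Rgs10 at 94.5 CPM per kb in Sham-Saline stand above the other 8 genes, all at 15.0 or below.

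Nerve injury without drug was compared first. Of the 10 members, 3 were called lower in SNI-Saline than in Sham-Saline (edgeR quasi-likelihood test, Benjamini-Hochberg adjusted p under 0.1) and none higher. Among all tested genes 12% were called, with 6.18% called lower. The 3 were Rgs17 of the RZ subfamily, Rgs8 of R4 and Rgs9 of R7. The median log2 fold change (log2FC) of the 10 members was -0.12, with 8 below 0, against a median of -0.00060 over all tested genes.

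The promoters of these 3 genes and of Rgs6, the member called after DMI in injured mice, are shown because they are the 4 genes with a called difference. The runs are the 250 bases before the RefSeq start (GRCm38.p6), 5′ to 3′ on the strand of the gene. RefSeq promoters matched 9 of the 10 members. Capitals mark matches, on either strand, to the cyclic AMP response element TGACGTCA, its core TGACG (which the full element contains), the AP-1 element TGANTCA and the GC box GGGCGG.
Rgs17, chr10:5922401-5922650, minus strand: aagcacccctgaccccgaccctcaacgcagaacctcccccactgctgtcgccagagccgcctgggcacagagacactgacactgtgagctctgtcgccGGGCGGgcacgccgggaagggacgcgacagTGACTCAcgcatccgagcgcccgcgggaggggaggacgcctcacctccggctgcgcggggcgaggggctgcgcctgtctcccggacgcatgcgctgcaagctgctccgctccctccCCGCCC
Rgs8, first of 3 starts, chr1:153652787-153653036, plus strand: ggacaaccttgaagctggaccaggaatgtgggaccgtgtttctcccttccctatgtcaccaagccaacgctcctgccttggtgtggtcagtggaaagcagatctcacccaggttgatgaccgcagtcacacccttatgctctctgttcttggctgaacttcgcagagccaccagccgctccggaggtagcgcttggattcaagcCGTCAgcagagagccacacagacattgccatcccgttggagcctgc
Rgs9, chr11:109298182-109298431, minus strand: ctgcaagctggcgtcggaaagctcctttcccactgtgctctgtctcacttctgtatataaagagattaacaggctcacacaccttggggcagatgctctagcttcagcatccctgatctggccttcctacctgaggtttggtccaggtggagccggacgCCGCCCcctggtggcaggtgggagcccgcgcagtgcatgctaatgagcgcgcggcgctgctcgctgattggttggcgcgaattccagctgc
Rgs6, chr12:82617249-82617498, plus strand: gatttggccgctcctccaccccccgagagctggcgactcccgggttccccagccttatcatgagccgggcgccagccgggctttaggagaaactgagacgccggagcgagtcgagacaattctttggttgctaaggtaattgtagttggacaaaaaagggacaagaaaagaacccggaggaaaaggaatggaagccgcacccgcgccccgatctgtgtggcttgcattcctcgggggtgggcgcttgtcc
The Rgs17 window held 1 AP-1 element and 2 GC boxes, the first Rgs8 window 1 core, the Rgs9 window 1 GC box and the Rgs6 window none of the 4. Over all 32851 RefSeq promoters of this length, 6.75% held an AP-1 element, 32.7% a GC box, 17.8% the core and 1.55% the full element. The Rgs17 window had 27 CG pairs, the Rgs6 window 18, the Rgs9 window 14 and the first Rgs8 window 9, against a median of 6. The windows of the later Rgs8 starts, not printed, had 4 and 5 CG pairs and none of the 4 motifs. No motif was common to the 4 windows.

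Rgs17 (ENSMUSG00000019775, chr10:5825663-5922400, GRCm38) is a GTPase-activating protein for Gz and has been linked to opioid receptor signalling. Its level in Sham-Saline mice 1 to 4 was 72.2, 59.1, 56.6 and 65.2 CPM, and in SNI-Saline mice 44.2, 42.7, 54.3 and 52.9 CPM. Every SNI-Saline mouse lay below every Sham-Saline mouse, with means of 48.5 ± 5.94 and 63.3 ± 6.94 CPM (SD, n = 4 each). Groups did not overlap in either direction for 15.4% of all tested genes. The log2FC was -0.38 (SE 0.091, adjusted p = 0.027). The call was lost without SNI-Saline replicate 1 (-0.33, adjusted p = 0.101) and without SNI-Saline replicate 2 (-0.32, adjusted p = 0.101). It was also lost after removal of a trend on GC content and exon length (-0.13, adjusted p = 0.269).

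Rgs8 (ENSMUSG00000042671, chr1:153653025-153700323), an R4 protein best known from cerebellar Purkinje cells, had 92.3, 79.5, 85.5 and 94.7 CPM in the Sham-Saline mice. The SNI-Saline mice had 64.1, 69.6, 65.4 and 65.3 CPM, again all below the lowest Sham-Saline mouse. The log2FC was -0.41 (SE 0.13, adjusted p = 0.0659). Over fits that each left out 1 library it ran from -0.46 to -0.37, with adjusted p from 0.0348 to 0.169. It missed the threshold when any of mice 1 (-0.38), 3 (-0.41) and 4 (-0.37) of Sham-Saline or mice 1 (-0.38), 2 (-0.43) and 4 (-0.40) of SNI-Saline was left out. Rgs8 shares 70 exon bases with the antisense gene Gm29529, which had at most 5 counts in any library.

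Rgs9 (ENSMUSG00000020599, chr11:109225355-109298129), the GTPase-activating protein of phototransduction and of striatal dopamine and opioid signalling, was a low transcript with 254 to 982 counts per library. The Sham-Saline mice had 6.12, 13.9, 12.5 and 14.5 CPM and the SNI-Saline mice 8.22, 9.02, 6.26 and 5.03 CPM. Replicate 1 of Sham-Saline lay within the SNI-Saline range, so the groups overlapped. The log2FC was -0.72 (SE 0.26, adjusted p = 0.097), and the call was lost with upper-quartile normalization (-0.71, adjusted p = 0.104). Adjusted p ran from 0.0518 to 0.236 over the fits without 1 library (-0.92 to -0.58), and the call was lost in 11 of these 16: without mouse 2, 3 or 4 of Sham-Saline, any mouse of SNI-Saline, mouse 3 of Sham-DMI, or mouse 1, 2 or 4 of SNI-DMI.

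The other 7 members were not called after injury. Rgs7, an R7 protein of the brain that acts on Go, had 102.9, 84.5, 87.0 and 86.1 CPM in Sham-Saline and 82.9, 77.9, 80.7 and 84.2 CPM in SNI-Saline. These groups did not overlap, and the log2FC was -0.15 (SE 0.064, adjusted p = 0.175). Rgs3, which acts on Gi and Gq subunits, had a log2FC of -0.15 (SE 0.073, adjusted p = 0.219), with 3 of 4 SNI-Saline mice below every Sham-Saline mouse. It was called when only the 8 libraries of the comparison were fitted (-0.15, adjusted p = 0.0773). Rgs4 had 1193, 994.7, 982.5 and 1072 CPM in Sham-Saline and 968.8 to 1025 in SNI-Saline, with a log2FC of -0.085 (adjusted p = 0.482). Rgs2, a Gq-selective member, stood at 0.11 (adjusted p = 0.516), and Rgs6, Rgs10 and Rgs14 at 0.044, -0.017 and -0.091 (adjusted p of 0.683 or above).

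**Figure D2:**
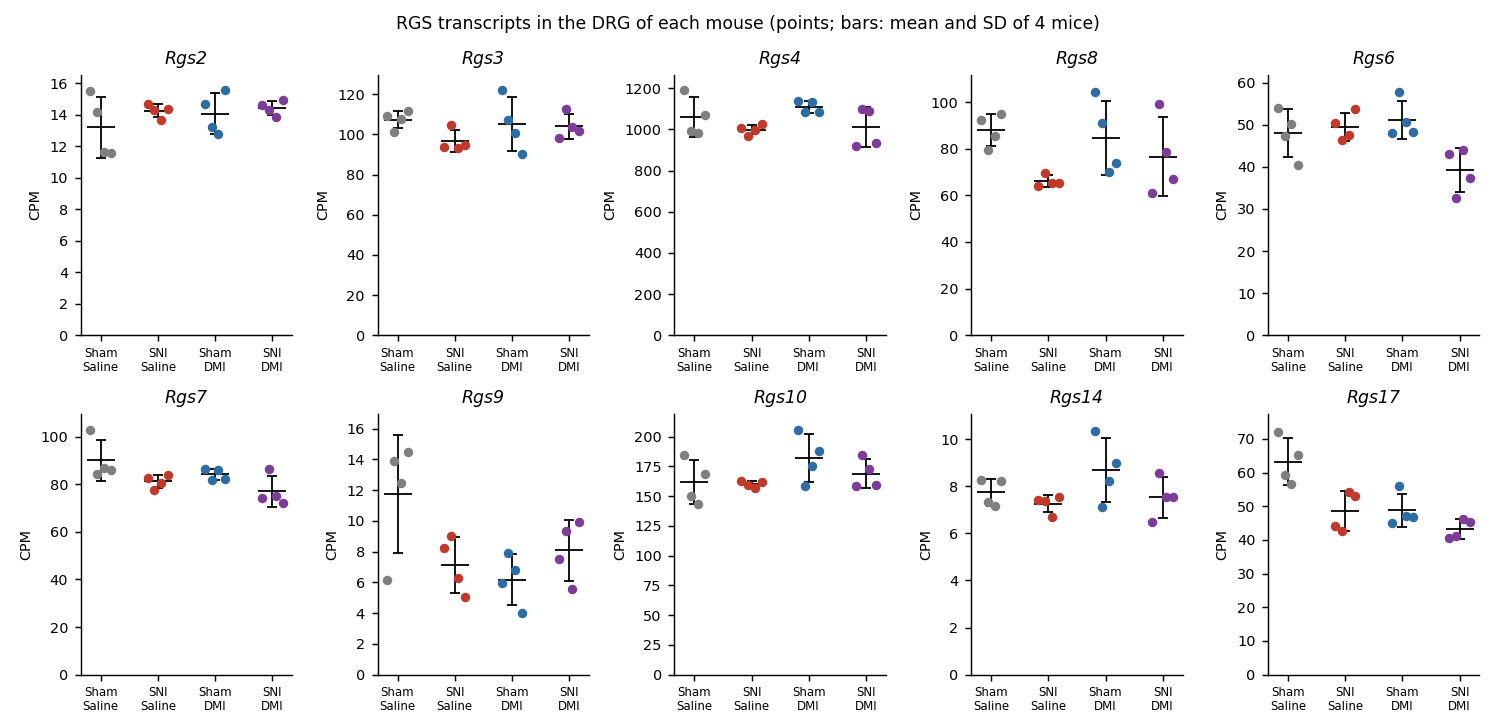
CPM of each RGS gene in every mouse, by group. Points are mice and bars the mean and SD of 4 mice, on axes that start at 0. Rgs17 is highest in Sham-Saline (56.6 to 72.2 CPM, no mouse of the other groups above 56.1). Rgs6 has its lowest mean in SNI-DMI (32.6 to 43.9 CPM), where the range overlaps that of Sham-Saline (40.5 to 53.9 CPM).

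DMI in uninjured mice was compared next. Of the 10 members, 2 were called lower in Sham-DMI than in Sham-Saline, Rgs17 and Rgs9, and none higher, where 23.4% of all tested genes were called and 11.9% called lower. The median log2FC was 0.018 for the members and -0.021 for all tested genes. This comparison and the injury comparison share the Sham-Saline mice.

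Rgs17 stood at 45.1, 56.1, 47.1 and 46.9 CPM in the Sham-DMI mice, all below the lowest Sham-Saline mouse at 56.6 CPM (no overlap in 17.1% of tested genes). The log2FC was -0.37 (SE 0.091, adjusted p = 0.011). Rgs9 stood at 5.93, 7.90, 6.82 and 4.004 CPM in Sham-DMI, and its log2FC was -0.93 (SE 0.26, adjusted p = 0.0203). Of the 4 Sham-DMI mice, 2 lay below every Sham-Saline mouse. Both calls were kept in each of the 16 fits that left out 1 library, with fold changes of -0.43 to -0.29 for Rgs17 and -1.12 to -0.75 for Rgs9. After removal of the GC and length trend the Rgs17 call was lost and its sign turned (0.043, adjusted p = 0.711). Sham-DMI replicates 2 and 4 had higher Atf3 and Sprr1a, a repair-associated gene of cut neurons, than any Sham-Saline mouse. By the sum of all 7 injured-neuron markers, replicate 1 was the highest Sham-DMI mouse at 373.7 CPM. Replicates 2, 3 and 4 had 363.4, 332.8 and 349.6 CPM, and all 4 lay above the Sham-Saline range of 276 to 306 CPM. Leaving out replicates 2 and 4 was chosen after seeing the data and kept only Sham-DMI replicates 1 and 3. In that fit Rgs17 stood at -0.46 (adjusted p = 0.0103) and Rgs9 at -0.88 (adjusted p = 0.0589), and Rgs10 was called higher at 0.24 (adjusted p = 0.0795).

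With all mice, Rgs10 had 158.0 to 205.5 CPM in Sham-DMI against 143.5 to 184.7 in Sham-Saline, a log2FC of 0.17 (SE 0.080, adjusted p = 0.162). Rgs10 was called without Sham-Saline replicate 1 (0.26, adjusted p = 0.0404) and without Sham-DMI replicate 2 (0.25, adjusted p = 0.0277). Rgs14 had 0.17 (SE 0.11, adjusted p = 0.337). The remaining 6 members had log2FCs from -0.098 (Rgs7) to 0.092 (Rgs6), with adjusted p of 0.321 or above.

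DMI in injured mice was compared as well. Rgs6 (ENSMUSG00000021219, chr12:82588292-83162056), an R7 protein that acts on Gi/o subunits, was the only one of the 10 called between SNI-DMI and SNI-Saline, where 2.93% of all tested genes were called and 1.61% called lower. The SNI-Saline mice had 50.3, 46.4, 47.6 and 53.7 CPM and the SNI-DMI mice 43.1, 32.6, 43.9 and 37.3 CPM. Every SNI-DMI mouse lay below every SNI-Saline mouse, which held for no other member in this comparison and, in either direction, for 13.3% of tested genes. The log2FC was -0.34 (SE 0.096, adjusted p = 0.0973), just under the threshold. Leaving out 1 library gave -0.38 to -0.26, with adjusted p from 0.0593 to 0.273, and the call was lost in 11 of 16 such fits: without mouse 2, 3 or 4 of Sham-Saline, mouse 1, 3 or 4 of SNI-Saline, mouse 3 of Sham-DMI, or any mouse of SNI-DMI. Rgs6 shares 77 exon bases with the antisense gene Gm29530, which had at most 2 counts.

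Rgs8 had 61.0, 99.3, 78.7 and 67.1 CPM in SNI-DMI against 64.1 to 69.6 in SNI-Saline. Its spread was wider under DMI (SD 16.9 against 2.41 CPM), and the log2FC was 0.21 (SE 0.13, adjusted p = 0.392). Leaving out 1 library gave 0.056 to 0.32, with the lowest value without SNI-DMI replicate 2 (adjusted p = 0.869). That replicate, the highest SNI-DMI mouse for Rgs8, also had the highest summed skeletal muscle markers of the series (105.6 CPM, against 2.14 for the lowest SNI-DMI mouse); the part of that in the Rgs8 value was not tested. Rgs17 stood at 40.4 to 46.2 CPM in SNI-DMI, with a log2FC of -0.17 against SNI-Saline (SE 0.092, adjusted p = 0.338). Rgs9 had 5.56 to 9.90 CPM and a fold change of 0.18 (SE 0.26, adjusted p = 0.747). The median of the 10 members was 0.036, with 7 above 0.

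Injury under DMI shared no library with the injury comparison under saline. None of the 10 members was called between SNI-DMI and Sham-DMI with edgeR, where 0.402% of all tested genes were called; 1 member (12.1% of all genes) had an unadjusted p under 0.05, and DESeq2 called 1. By the nominal rule of the study, an unadjusted p under 0.05 with a log2FC of at least 0.32 in size, 1 member passed, as did 5.41% of all genes. That member was Rgs6. The Sham-DMI mice had 48.0, 57.7, 50.6 and 48.2 CPM, all above every SNI-DMI mouse (no overlap in 5.04% of tested genes), for a log2FC of -0.38 (SE 0.096, adjusted p = 0.127). DESeq2 gave -0.39 (adjusted p = 0.0145). Rgs6 was also called without Sham-DMI replicate 1 (-0.43, adjusted p = 0.0549) or SNI-DMI replicate 3 (-0.43, adjusted p = 0.0737). The 3 members lower after injury under saline stood at -0.18 (Rgs17), -0.15 (Rgs8) and 0.39 (Rgs9), with adjusted p of 0.461, 0.668 and 0.565. Under DMI the median log2FC of the 10 members was -0.13, with 8 below 0, against 0.00071 over all tested genes. Under saline the member median was -0.12, also with 8 below 0.

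Whether the DMI effect differed between injured and sham mice was tested as a contrast of its own. With edgeR none of the 10 members was called, as none of the 21371 genes was (0.0%); 2 members had an unadjusted p under 0.05, and DESeq2 called none. The 2 were Rgs6, with a log2 difference of -0.43 (SE 0.13, adjusted p = 0.619), and Rgs9, with 1.11 (SE 0.36, adjusted p = 0.619). Among all tested genes 7.92% had an unadjusted p under 0.05, and 3.45% passed the nominal rule, as did both members. The difference was 0.21 for Rgs17 (SE 0.13, adjusted p = 0.692) and 0.26 for Rgs8 (SE 0.18, adjusted p = 0.725).

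**Figure D3:**
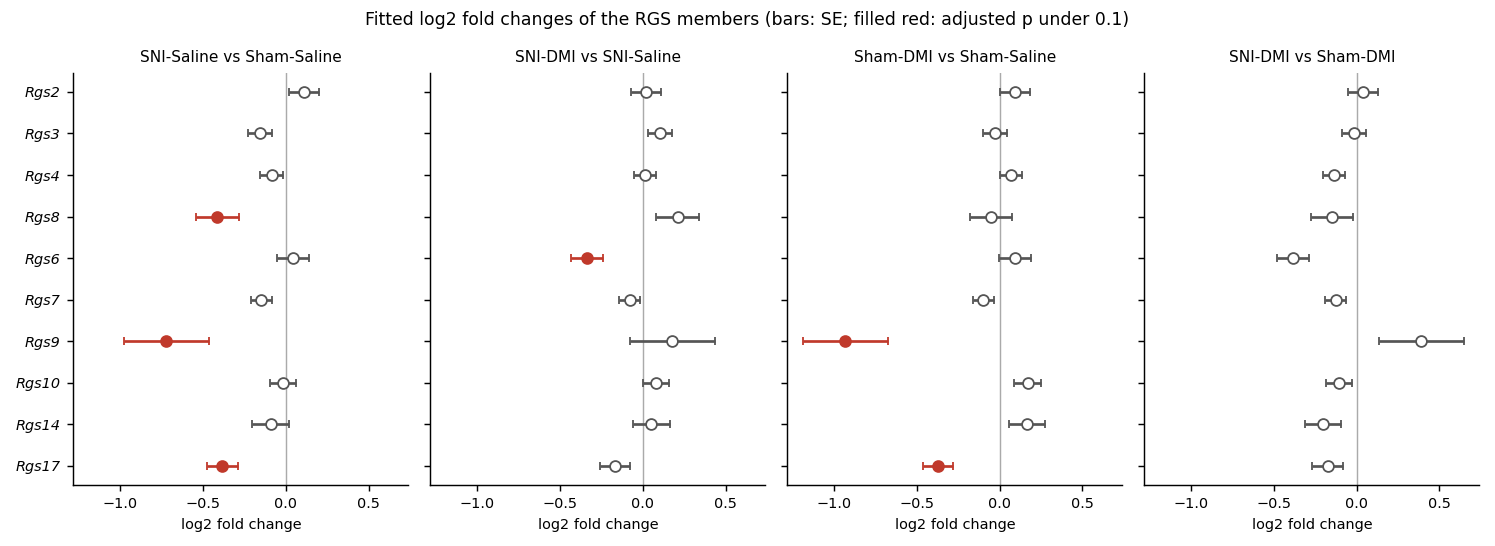
Log2 fold changes of the 10 RGS genes (horizontal axis) in the 4 comparisons between groups, with SE bars and filled red points for an adjusted p under 0.1. The called points are Rgs8, Rgs9 and Rgs17 for SNI-Saline against Sham-Saline, Rgs6 for SNI-DMI against SNI-Saline, and Rgs9 and Rgs17 for Sham-DMI against Sham-Saline, all below 0.

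Fold changes moved with base composition across the whole table. Genes with a GC content under 40% (1403 genes) had median log2FC values of -0.16 for SNI-Saline against Sham-Saline, -0.20 in SNI-DMI against SNI-Saline and -0.28 in Sham-DMI against Sham-Saline. For genes at 55% or above the medians were 0.050, 0.093 and 0.058. Rgs17 (36.9% GC in its longest transcript) and Rgs7 (36.7%) are among the most AT-rich genes tested, with 1.53% and 1.32% of tested genes below them, and the other 8 members lie between 43.6% and 54.3%.

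After a smooth trend on GC content and exon length was removed from each library, the log2FC of Rgs17 was -0.13 after injury (adjusted p = 0.269) and 0.043 after DMI in sham mice (adjusted p = 0.711), and neither was called. Rgs7 shifted from -0.098 to 0.32 for Sham-DMI against Sham-Saline and was called higher (SE 0.094, adjusted p = 0.0313), and after injury it shifted from -0.15 to 0.084 (adjusted p = 0.70). Rgs9 hardly moved, to -0.70 after injury (adjusted p = 0.158) and -0.84 after DMI in sham mice (adjusted p = 0.0359), where it was still called. Rgs8 after injury went to -0.36 (adjusted p = 0.158). Rgs6 went to -0.31 for SNI-DMI against SNI-Saline (adjusted p = 0.142) and to -0.40 for SNI-DMI against Sham-DMI, where it was now called (adjusted p = 0.0725). With the trend removed, 4.76% of all tested genes were called after injury, 0.229% for SNI-DMI against SNI-Saline, 19.4% for Sham-DMI against Sham-Saline and 1.1% for SNI-DMI against Sham-DMI.

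**Figure D4:**
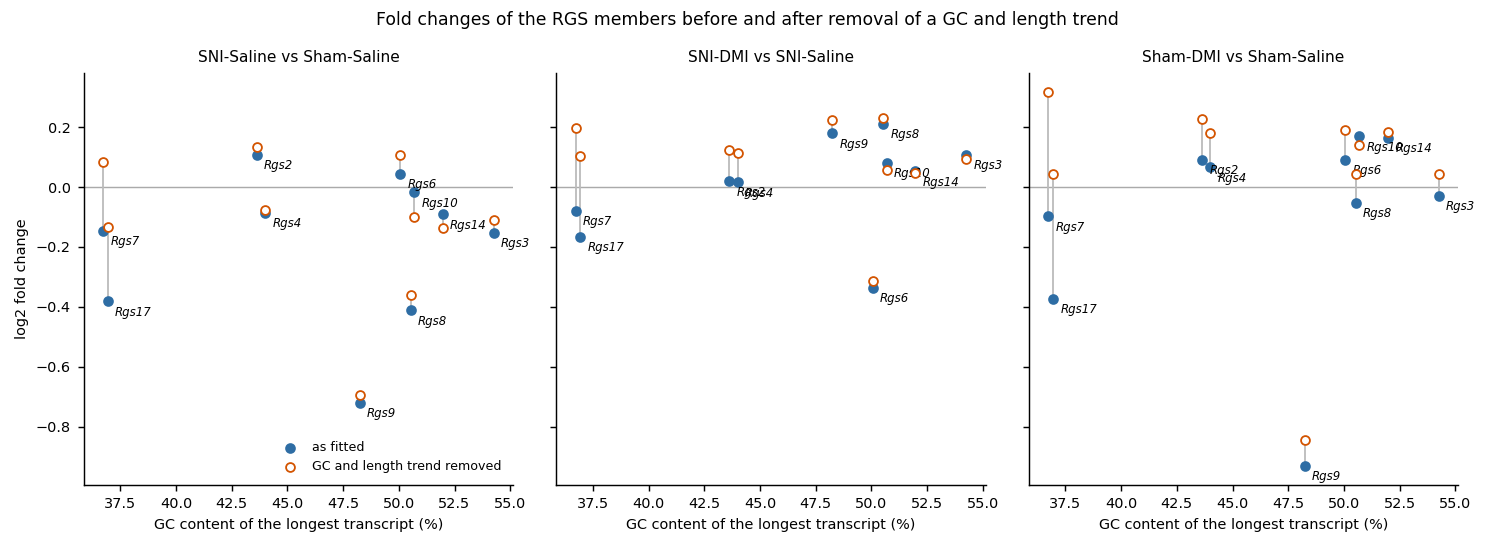
Log2 fold change of each RGS gene against the GC content (%) of its longest transcript in 3 comparisons, as fitted (filled blue) and after removal of a trend on GC content and exon length (open orange), joined by a line. In all 3 panels the longest shifts belong to Rgs7 and Rgs17, the genes at 36.7% and 36.9% GC, while Rgs9 at 48.2% stays at -0.72 and -0.70 in the left panel.

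The other genes of the pathway were taken from 6 lists with 51 tested genes. Of 11 other RGS genes 8 were tested, and 1 was called in any comparison. That call was for Sham-DMI against Sham-Saline, where 23.4% of all tested genes were called. Rgs11, a further R7 member, was higher in Sham-DMI (64.9 to 74.7 CPM) than in Sham-Saline (54.3 to 66.7 CPM), with a log2FC of 0.21 (adjusted p = 0.0739, and 0.109 with the GC trend removed). Rgs1, Rgs13 and Rgs21 were too low to test, with at most 28 counts in a library.

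Among 5 partners of R7 proteins, 1 was called lower after injury and 1 lower and 1 higher for Sham-DMI against Sham-Saline, where 12% and 23.4% of all tested genes were called. Rgs7bp, which anchors R7 complexes at the membrane, had 733.2, 628.7, 648.7 and 658.5 CPM in Sham-Saline and 528.6, 520.9, 533.6 and 522.9 CPM in SNI-Saline. The groups did not overlap, with a log2FC of -0.34 (SE 0.065, adjusted p = 0.0106, and -0.24 with an adjusted p of 0.0292 after trend removal). In Sham-DMI it had 490.4 to 607.1 CPM, also below every Sham-Saline mouse, at -0.27 (adjusted p = 0.0101), but -0.068 (adjusted p = 0.455) after trend removal. Gnb5, the obligate G-beta partner of R7 proteins, had 79.5 to 83.6 CPM in Sham-Saline and 88.1 to 98.5 in Sham-DMI, a log2FC of 0.15 (adjusted p = 0.0324, and 0.0282 after trend removal).

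Of 13 G-alpha subunits, 5 were called lower after injury and none higher, against 6.18% of all tested genes called lower. Gnaq, the subunit that drives phospholipase C, fell from 441 ± 37.5 to 359 ± 15.0 CPM (SD, n = 4 each), at -0.30 on the log2 scale (adjusted p = 0.0205). Gna13, a subunit of the G12 class, and Gnal, the Gs-class subunit of olfactory and striatal neurons, had -0.23 and -0.28 (adjusted p of 0.0234 and 0.0335). With the GC trend removed 3 of the 5 were called, among them Gnaq and Gna13 but not Gnal. For Sham-DMI against Sham-Saline 5 were called lower as well (11.9% of all tested genes), led by Gnai3 (-0.20, adjusted p = 0.00892), Gnai1 (-0.17, adjusted p = 0.0118) and Gna13 (-0.17, adjusted p = 0.0317), and none of the 5 was called with the trend removed. Between SNI-DMI and SNI-Saline 1 of the 13 was called, where 2.93% of all tested genes were called. Gnai1, an inhibitory subunit, had 87.8 to 91.5 CPM in SNI-DMI against 98.4 to 109.9 in SNI-Saline, at -0.18 (adjusted p = 0.0674, and 0.545 with the trend removed).

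Of 15 G-beta and G-gamma subunits, 1 was called after injury, 3 for Sham-DMI against Sham-Saline and 1 for SNI-DMI against SNI-Saline. Among all tested genes 12%, 23.4% and 2.93% were called there. Gng3, a neuronal G-gamma, was higher after injury (0.23, adjusted p = 0.034, and 0.227 with the trend removed). It was also higher in Sham-DMI, with 408.6 to 463.7 CPM against 313.8 to 377.2 in Sham-Saline (0.36, adjusted p = 0.00207, and 0.00255 with the trend removed). Gng12 and Gng2 were called lower in Sham-DMI (-0.24 and -0.15, adjusted p of 0.00971 and 0.0536), and Gng2 lower in SNI-DMI than in SNI-Saline (-0.19, adjusted p = 0.0885). None of these 3 calls was kept with the trend removed (adjusted p of 0.458 or above). Gnb1 was called higher in Sham-DMI than in Sham-Saline only with the trend removed (0.15, adjusted p = 0.0628). Before removal it had 0.081 (adjusted p = 0.256).

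Among GIRK channels, the potassium channels opened by G-beta-gamma, 3 of 4 were tested. Of the 3, 1 was called after injury and 1 for Sham-DMI against Sham-Saline, where 12% and 23.4% of all tested genes were called. Kcnj6 was low, with 1.27 to 1.53 CPM in Sham-Saline, 0.453 to 1.19 in SNI-Saline and 0.444 to 1.04 in Sham-DMI, all below the lowest Sham-Saline mouse. Its log2FC was -1.002 after injury (SE 0.28, adjusted p = 0.045) and -1.04 for Sham-DMI (SE 0.28, adjusted p = 0.0183), and both calls were kept with the trend removed (adjusted p of 0.0725 and 0.0246). Of 7 receptor kinases and arrestins, 1 was called after injury and 1 for Sham-DMI against Sham-Saline, again against 12% and 23.4%. Both calls were of Grk3, a kinase that desensitises receptors. It was lower after injury, with 25.0 to 27.8 CPM against 30.1 to 36.97 (-0.37, adjusted p = 0.0298, and 0.0729 with the trend removed). In Sham-DMI it had 26.4 to 29.2 CPM (-0.30, adjusted p = 0.033, and 0.149 with the trend removed). As fitted without trend removal, no gene of the 6 lists was called with edgeR between SNI-DMI and Sham-DMI or for the difference between the DMI effects, where 6 and 2 of the 51 had an unadjusted p under 0.05 and DESeq2 called 3 and 0. Among all tested genes 12.1% and 7.92% had such a p. With the trend removed, edgeR called Kcnj3, a further GIRK channel, lower in SNI-DMI (18.2 to 22.8 CPM) than in Sham-DMI (23.7 to 27.2 CPM). Its log2FC there was -0.30 (adjusted p = 0.0842), and before removal -0.30 (adjusted p = 0.127).

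**Figure D5:**
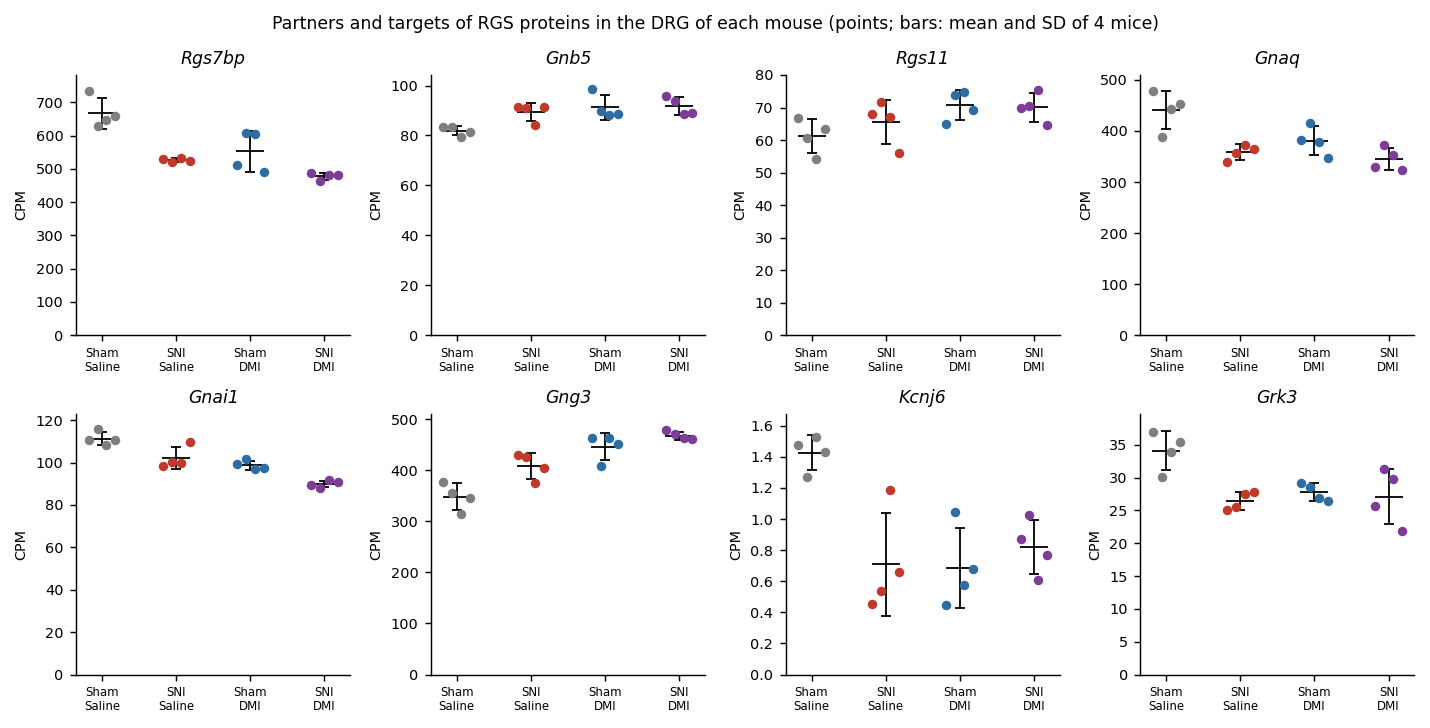
CPM in every mouse of 8 called pathway genes, by group, with the mean and SD of 4 mice and axes that start at 0. Rgs7bp and Kcnj6 are highest in Sham-Saline (628.7 to 733.2 and 1.27 to 1.53 CPM). Gng3 has its lowest mean there (313.8 to 377.2 CPM, against 375.0 to 430.1 in SNI-Saline).

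The patterns of Rgs17, Rgs8 and Rgs9 over the 16 libraries were compared with those of 15750 genes of at least 1 CPM by Pearson's r of log2 CPM, as a description. The libraries share groups and base composition trends. Rgs17 was most like Zfp729a (r = 0.974), Ptbp3 (0.969) and Rnf168 (0.959), which have a GC content of 39.5%, 38.9% and 44.3%. Rgs8 was most like Gfra2 (0.949), the receptor of neurturin, Tmem72 (0.927) and Cds2 (0.927). Rgs9 was most like Bmpr1b (0.939), a bone morphogenetic protein receptor, and the adhesion genes Cntn5 (0.931) and Pcdh10 (0.923). The GC content was 53.3%, 47.1% and 51.6% for Gfra2, Tmem72 and Cds2, and 42.2%, 48.3% and 43.5% for Bmpr1b, Cntn5 and Pcdh10.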

How the data were processed

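The authors sequenced stranded mRNA libraries in pairs of 50-base reads and deposited whole-number counts per Ensembl gene without normalization (mm10, with HISAT2 and HTSeq per the labels). The annotation release and the strand setting of the counting are not given in the sources used here, and lines of unassigned reads were left out. Symbols, coordinates and lengths came from GENCODE M21 (GRCm38), and promoters from RefSeq.

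Tests ran in R 4.3.3, by edgeR 4.0.16 (filterByExpr, TMM, glmQLFit, 1 coefficient per group, all 16 libraries). Benjamini-Hochberg adjustment ran over 21371 genes, and a gene was called at an adjusted p under 0.1. Alternatives were DESeq2 1.42.0, other normalizations and filters, only the 8 libraries of a comparison, a replicate block and each library left out. Each library's trend on GC content and exon length was fitted with mgcv 1.9.3 (basis size 8) and removed as an offset. CPM are TMM-scaled. The code was tested on simulated data with known changes. Those data held no trend on GC content or exon length, so they did not test how well such a trend is removed.

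The members, lists and alternatives were chosen with earlier results of these data known. Named were all members, at most 3 called genes per pathway list and comparison by smallest p, and the 3 genes most like each of the 3 members with the smallest p after injury. The common biological coefficient of variation was 12.1%, and replicates differed by a chi-square per gene of 10 to 42.5. Averaged over all tested genes, replicate libraries thus differed by more than counting noise. This average need not hold for genes of low count. Spread between mice and spread between library preparations cannot be told apart with 1 library per mouse. With 1 mouse per library, replicates are separate animals.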

Additional observations from a re-analysis of the deposited data

Results flagged for a closer look

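In 5 of 92 groups of 4 mice (23 genes in 4 groups), 1 library stood apart, its gap to the nearest mouse, as a share of the group's range, passing Dixon's critical value. Chance flags about 1 in 20 groups. Rgs3 was highest in SNI-Saline replicate 2 (0.874 of the range), and Rgs7 in Sham-Saline replicate 1 (0.855), at 102.9 CPM against 84.5 to 87.0 in the other 3 mice. Gnb5 was lowest in SNI-Saline replicate 3 (0.94). Gnal was lowest in Sham-Saline replicate 2 (0.846) and in SNI-Saline replicate 1 (0.841).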

How the results depend on the processing

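Over 1290 fold changes of members under the alternatives, 1201 kept their direction and side of the threshold, 43 were no longer called, 14 were newly called and 36 changed sign; 2 of the lost and 2 of the new calls were also among the sign changes.

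Members called after injury went from 3 to 0 with the GC and length trend removed, and also to 0 with the trend removed and the replicate block. It went to 2 with upper-quartile normalization and with the replicate block, where Rgs9 was lost (adjusted p of 0.104 and 0.107), and to 4 with only the 8 libraries, where Rgs3 was added (adjusted p = 0.0773). Between SNI-DMI and SNI-Saline the 1 call became 0 with the replicate block, with the trend removed and with both. Between SNI-DMI and Sham-DMI the count of 0 became 1 with no filter on low counts, with DESeq2, with the trend removed, with the trend removed and the block, and by the nominal rule of the study. By that rule 2 members passed for the difference between the DMI effects. Over fits without 1 library, members called ran from 0 to 3 after injury, 0 to 1 for SNI-DMI against SNI-Saline, 2 to 4 for Sham-DMI against Sham-Saline, and 0 to 1 for SNI-DMI against Sham-DMI. For Sham-DMI against Sham-Saline the count stayed at 2 with the trend removed, with Rgs7 in place of Rgs17.

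Sign changes with the trend removed, with the value that includes the block in brackets, were 0.084 (0.084) for Rgs7 after injury, 0.20 (0.20) for Rgs7 and 0.10 (0.10) for Rgs17 between SNI-DMI and SNI-Saline, and for Sham-DMI against Sham-Saline 0.044 (0.041) for Rgs3, 0.042 (0.032) for Rgs8, 0.32 (0.32) for Rgs7 and 0.043 (0.044) for Rgs17. The difference between the DMI effects became -0.12 (-0.12) for Rgs7. Without Sham-DMI replicates 2 and 4, an alternative chosen after seeing the data, Rgs3 for Sham-DMI against Sham-Saline stood at 0.055 and the difference for Rgs7 at -0.016. Apart from the trend, these changes concerned members that were not called.

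Fits without 1 library spanned 0 for Rgs6 (-0.023 to 0.11) and Rgs10 (-0.057 to 0.063) after injury, for Rgs2 (-0.0058 to 0.054), Rgs4 (-0.030 to 0.071) and Rgs14 (-0.021 to 0.13) between SNI-DMI and SNI-Saline, for Rgs3 (-0.092 to 0.055) and Rgs8 (-0.15 to 0.043) between Sham-DMI and Sham-Saline, for Rgs3 (-0.097 to 0.050) between SNI-DMI and Sham-DMI, and for Rgs7 (-0.054 to 0.046) in the difference. All genes called ran from 682 to 3286 of a full count of 2571 after injury, from 0 to 1842 around 626 between SNI-DMI and SNI-Saline, from 3286 to 6094 around 5010 for Sham-DMI, and from 17 to 850 around 86 between SNI-DMI and Sham-DMI.

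The replicate numbers were not shown to pair mice: deviations of same-numbered mice correlated from -0.0813 to 0.184. Only replicates 2 and 3 correlated best with their own number, in SNI-Saline against Sham-Saline and in SNI-DMI against SNI-Saline. In the other comparisons between groups no mouse did. The replicate block moved all genes called between SNI-DMI and SNI-Saline to 172. There 1898 were called with DESeq2, 1812 with only the 8 libraries of the comparison, 1206 without Sham-DMI replicates 2 and 4, 49 with the trend removed and 0 with the trend removed and the block. After injury 1018 were called with the trend removed and 603 with the block as well. Between SNI-DMI and Sham-DMI 310 were called with no filter, 517 with DESeq2, 9 with only the 8 libraries, 235 with the trend removed and 30 without Sham-DMI replicates 2 and 4. For the difference between the DMI effects DESeq2 called 16 genes, and edgeR 1 with the trend removed and the block. The cause of these shifts was not tested.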
